A study of Mus musculus with 3 samples.

Results

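The forkhead (Fox), Sox and T-box (Tbx) genes encode 3 families of transcription factors, and their RNA was followed in cultures grown from mouse embryonic stem cells. Members were taken by symbol alone, as every gene of the deposited tables named Fox, Sox or Tbx followed by its letter and number. This gave 76 of the 47725 genes, namely 44 Fox, 19 Sox and 13 Tbx genes. The study sequenced 3 cultures with 1 library each. BEM carried a mutation of an E-box, a short DNA motif bound by basic helix-loop-helix factors, at the site that the labels call E3. BM carried a mutation of Barhl1, a homeobox gene of inner ear hair cells, and WT was the wild-type line. All 3 cultures were otic progenitors at culture day 9 of an induction towards hair cell-like cells, co-cultured with utricle stroma of chicken embryos that had been blocked from dividing, in medium holding 25 ng/ml of EGF and 1 µM of retinoic acid. The kind of mutation in BM, the number of clones behind each line and whether reads of the chicken cells were set apart are not stated in the labels.

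Levels are FPKM, reads scaled to gene length and to the library's total, as deposited by the authors. Whole reads behind these values were recovered, and library totals came to 23813123 reads in BEM, 20111794 in BM and 21555823 in WT. Intervals beside a fold are 95% Clopper-Pearson intervals of the ratio of reads and cover counting error only. With 1 library per line no difference has a replicate check, and no p-value was computed. Barhl1 stood at 0.0107 FPKM in BEM, 95.1 FPKM in BM and 126 FPKM in WT, and Atoh1, which starts hair cell differentiation, at 241, 236 and 270 FPKM in the same order. Of 9 hair cell genes 5 averaged 1 FPKM or more over the 3 libraries, Atoh1 and Barhl1 among them. Of these 5, 1 was at least 2-fold higher and 1 lower in BM than in WT, and 1 higher and 2 lower in BEM. Pou4f3, a defining hair cell factor, had 1 read in each culture.

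Each family binds DNA through a domain of its own: the winged helix of Fox proteins, the HMG box of Sox proteins, which bends DNA in the minor groove, and the T-box domain. Fox and Sox proteins include pioneer factors, which can bind sites in closed chromatin. In the inner ear, Sox2 marks the prosensory epithelium from which hair cells and supporting cells arise, Sox9 acts in the otic vesicle, Foxi3 in the placode before it, Sox10 in otic epithelium and in neural crest-derived glia, and Tbx1, Tbx2 and Tbx3 in otic patterning. Many members define other lineages, so their levels also describe which cell types a mixed culture holds. In bulk RNA, fewer cells of a type and less RNA per cell cannot be told apart.

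Fewer of these factors were expressed in either mutant culture than in WT, and the same 24 members were at 1 FPKM or more in BEM and in BM, against 37 in WT. In all, 41 of the 76 members reached 1 FPKM in some culture. Of these 41, 20 did so in all 3 cultures, 17 in WT alone and 4 in BEM and BM but not in WT. WT-only members made up 41.5% of the 41, against 11.7% of the 14190 genes of the table that reached 1 FPKM anywhere. Members at that level in both mutants alone made up 9.76%, against 5.82% of such genes. Members at that level in all 3 cultures made up 48.8%, against 78.2%. The split differed by family in these libraries, with 13 of 26 Fox genes in the WT-only class and 0 in the mutant-only class, and 3 of 7 Tbx genes in the mutant-only class. Just above the threshold were Sox5 at 1.03 FPKM and Foxl2 at 1.05 FPKM in WT, and just below it Sox21 at 0.708 FPKM in WT and Tbx5 at 0.9998 FPKM in BM.

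**Figure D1:**
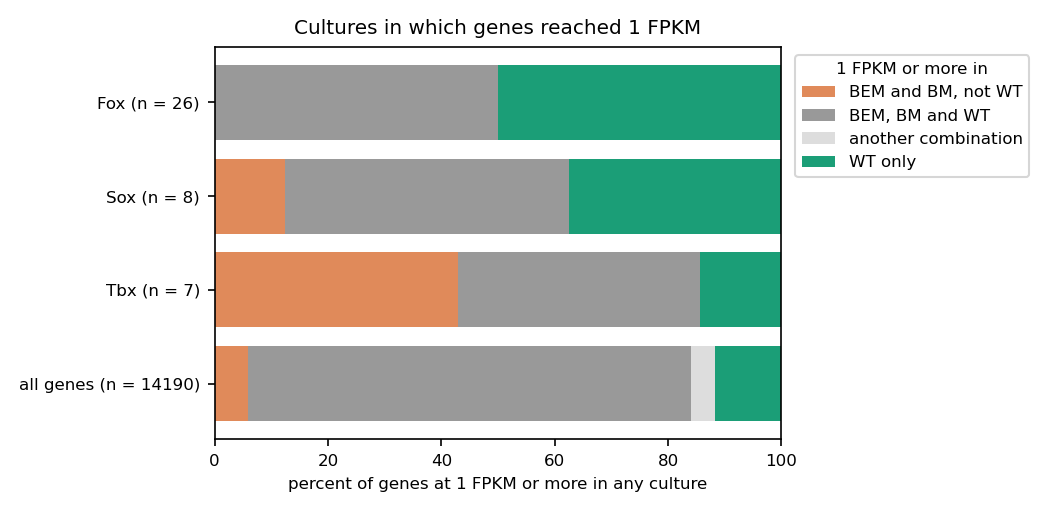
Percent of the genes at 1 FPKM or more in any culture that reached this level in BEM and BM but not WT, in all 3 cultures, in another combination, or in WT only, for 26 Fox, 8 Sox and 7 Tbx genes and for 14190 genes of the whole table. WT-only genes take 50% of the Fox bar and 11.7% of the bar of all genes.

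Sox4 was the highest member in every culture, at 23.9 FPKM in BEM, 26.2 FPKM in BM and 55.9 FPKM in WT. Foxk2 and Foxo3 were also among the first 4 in each. Tbx15 came next after Foxk2 in BEM and in BM at 19.1 and 18.8 FPKM, and was not among the first 10 in WT at 3.36 FPKM. Tbx2, Sox9, Foxo4, Sox11 and Foxa1 were among the first 10 in WT and in neither mutant culture. Summed over the 76 members, the level was 185 FPKM in BEM, 189 FPKM in BM and 350 FPKM in WT. Fox genes summed to 113, 115 and 200.4 FPKM, Sox genes to 41.9, 44.5 and 113 FPKM, and Tbx genes to 30.4, 29.3 and 36.8 FPKM, each in the order BEM, BM and WT. At the other end, 35 members stayed under 1 FPKM in every culture and 10 of them had 0 reads in all 3. Among these 10 were Foxi1 and Foxi3, the latter a gene of the otic placode.

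**Figure D2:**
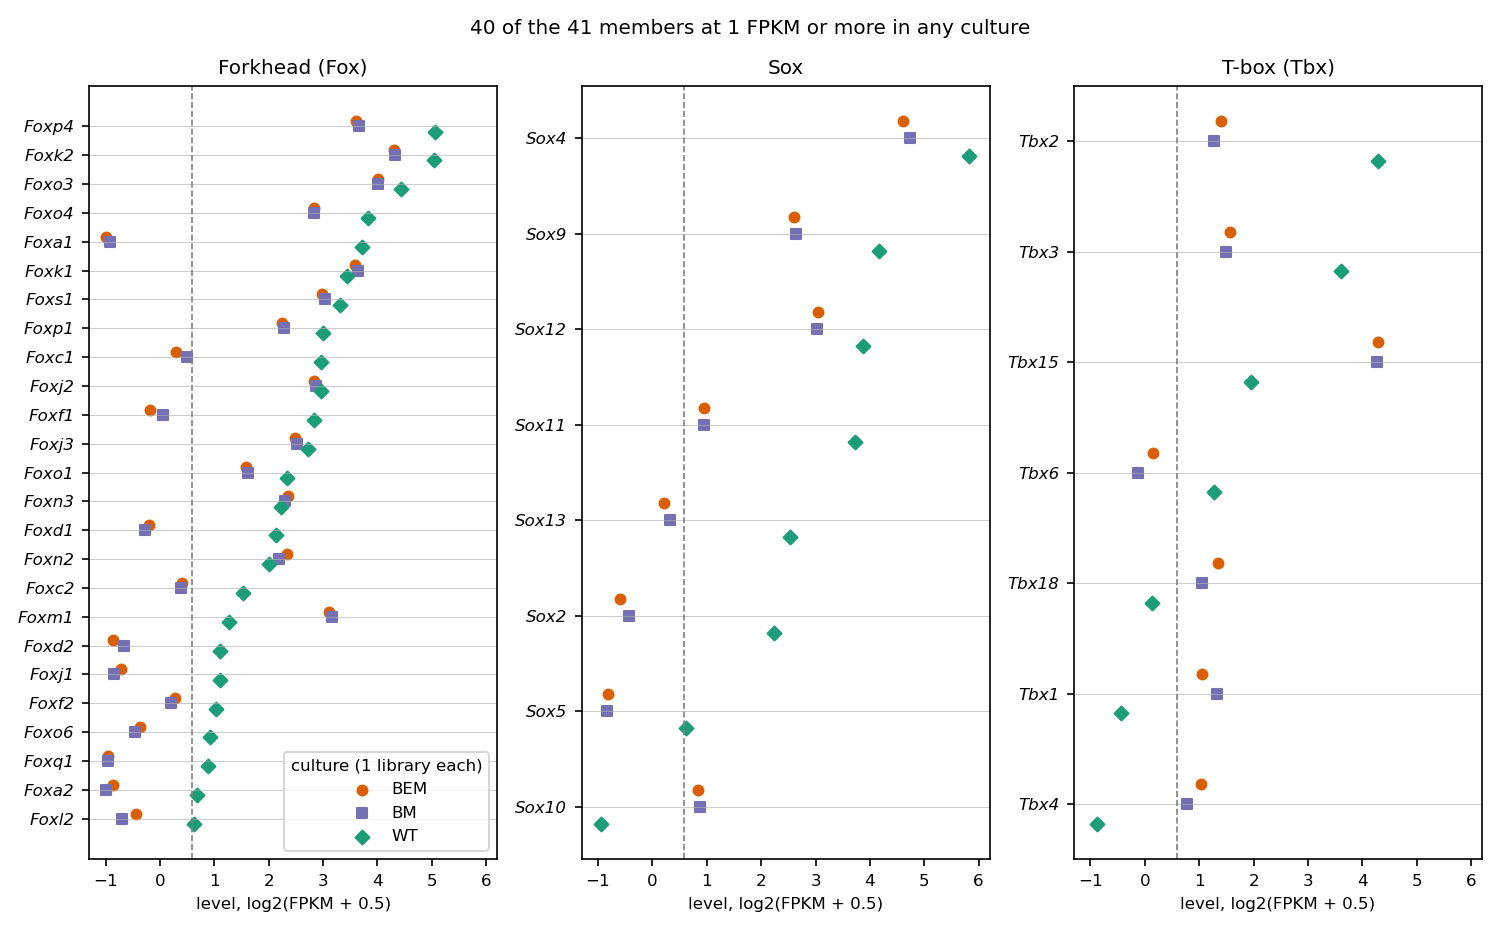
Levels of 40 of the 41 members at 1 FPKM or more in any culture, as log2(FPKM + 0.5), with 1 point per library for BEM, BM and WT and the dashed line at 1 FPKM. BEM and BM points lie close together for most members, while WT lies to their right for most Fox and Sox genes and to their left for Foxm1, Sox10, Tbx15, Tbx18, Tbx1 and Tbx4.

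Differences were counted as 2-fold or more on the scale log2(FPKM + 0.5), among members that averaged 1 FPKM or more across BEM, BM and WT. This filter left 29 of the 76 members, and some passed it only through the WT library, in which they were high. The gene lists below met the same filter, and some of their genes passed it only through WT or only through BEM and BM. For members and list genes of this kind, the filter set the direction in advance. In BM against WT, 13 of the 29 were at least 2-fold lower, which is 44.8%, against 15.3% of all 12875 genes so filtered. Another 3 of 29, or 10.3%, were at least 2-fold higher, against 10.5%. In BEM against WT 14 of the 29, or 48.3%, were at least 2-fold lower, against 15.3%, and 4, or 13.8%, higher, against 10.7%. The median log2 ratio of these 29 members was -0.85 in BM and -0.82 in BEM, against -0.08 and -0.07 over all filtered genes. Both comparisons use the same WT library. By family, 6 of 18 Fox, 5 of 6 Sox and 2 of 5 Tbx genes were at least 2-fold lower in BM, and 7, 5 and 2 in BEM. In BM 1 Fox, 0 Sox and 2 Tbx genes were past 2-fold in the upward direction, and in BEM 1, 0 and 3. The authors' deposited table marked 5 members as significantly higher and 13 as lower in BM, against 1.24% and 2.02% of all genes, and 4 and 14 in BEM, against 1.33% and 2.11%. No source used here says how those calls could be made without replicates. The percentages beside them are of all 47725 genes, of which 14190 reached 1 FPKM in some culture. Of the 76 members, 41 did, so the members and all genes differ in how often they are expressed.

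**Figure D3:**
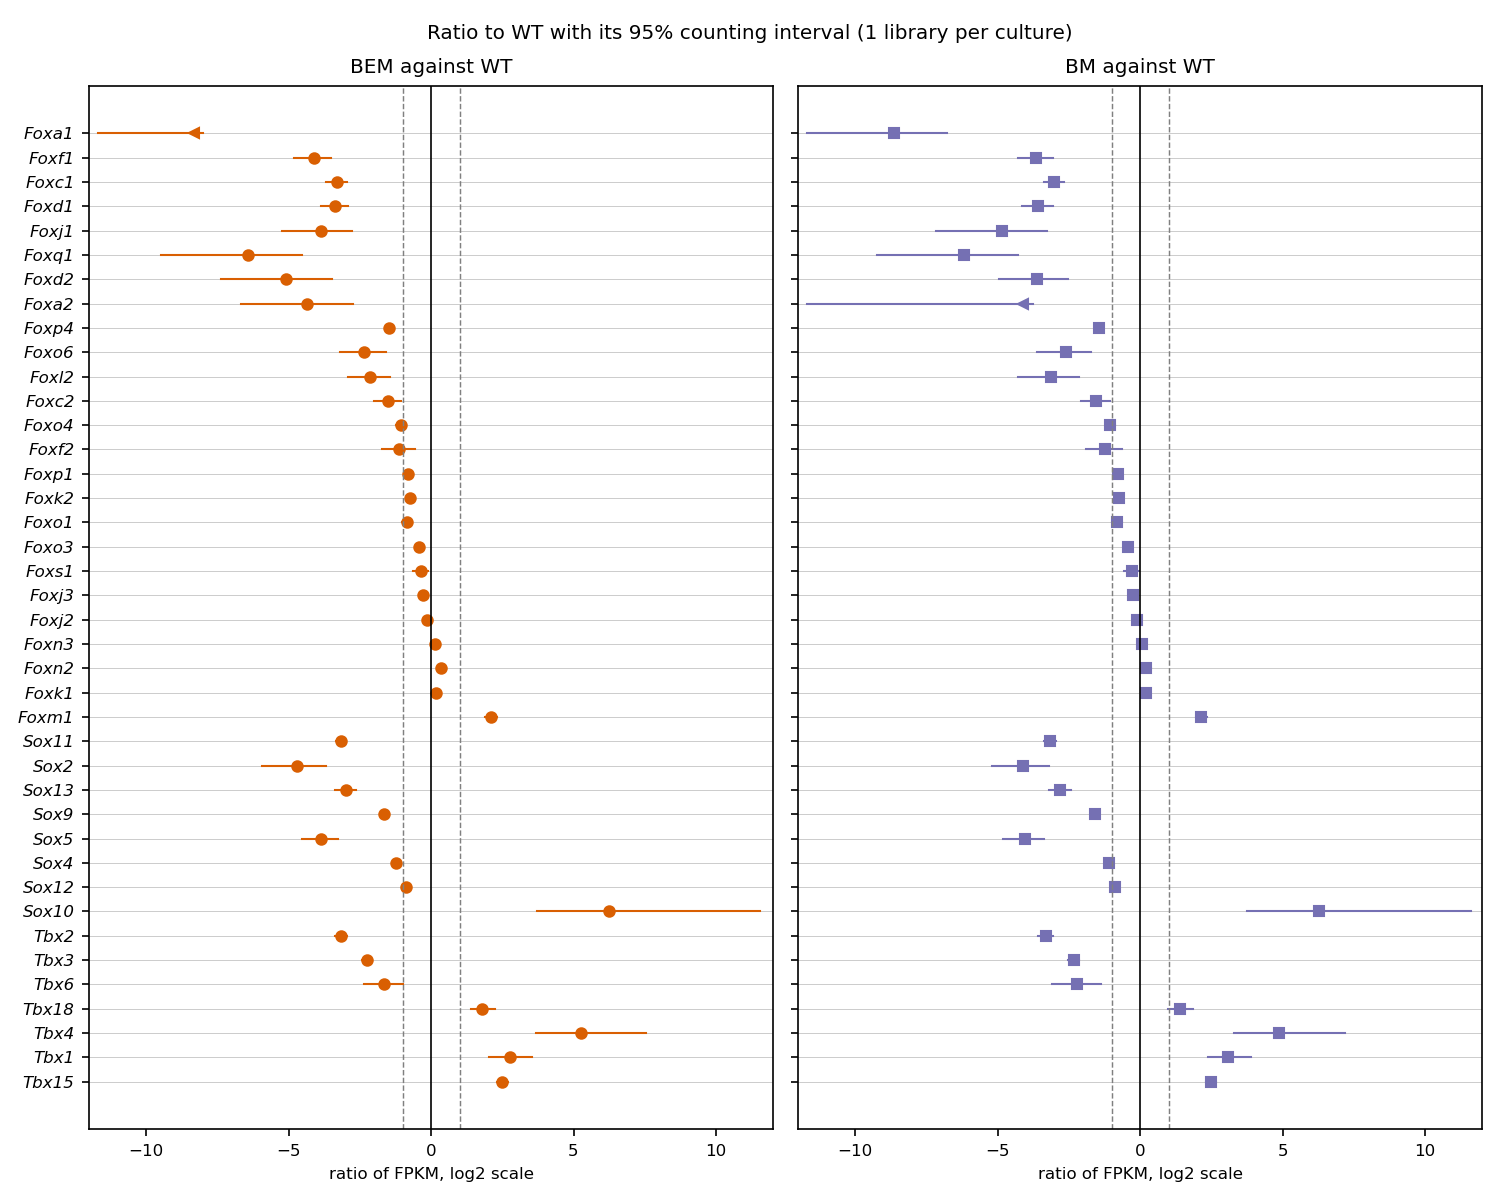
Ratio of BEM to WT (left) and of BM to WT (right) for the same 40 members, on a log2 scale, with 95% counting intervals as lines and dashed lines at 2-fold. Arrowheads mark a library at 0 reads, for which the fold is taken with 3 reads in its place and the interval is open to the left. Within each family, members are ordered by the difference in log2(FPKM + 0.5) between BM and WT, with the lowest at the top and the highest at the bottom, from Foxa1 to Foxm1, Sox11 to Sox10 and Tbx2 to Tbx15.

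The promoters of Foxa1, Sox2, Sox11 and Foxc1 are shown because these are the 4 members furthest from WT in log2(FPKM + 0.5), among those of the 29 for which the RefSeq promoter table (GRCm38.p6) held a sequence, and because the BEM line is mutant in an E-box. Each run is the 250 bases before the start of the RefSeq transcript, 5′ to 3′ on the gene's strand, and capitals mark the E-box motif CANNTG. The positions are chr12:57546112-57546361 on the minus strand for Foxa1, chr3:34649745-34649994 on the plus strand for Sox2, chr12:27342719-27342968 on the minus strand for Sox11 and chr13:31806396-31806645 on the plus strand for Foxc1.
Foxa1 promoter: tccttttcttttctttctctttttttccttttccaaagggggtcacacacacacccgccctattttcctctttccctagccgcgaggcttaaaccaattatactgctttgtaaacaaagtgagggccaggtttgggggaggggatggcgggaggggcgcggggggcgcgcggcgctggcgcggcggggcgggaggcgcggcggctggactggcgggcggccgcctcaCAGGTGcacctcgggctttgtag
Sox2 promoter: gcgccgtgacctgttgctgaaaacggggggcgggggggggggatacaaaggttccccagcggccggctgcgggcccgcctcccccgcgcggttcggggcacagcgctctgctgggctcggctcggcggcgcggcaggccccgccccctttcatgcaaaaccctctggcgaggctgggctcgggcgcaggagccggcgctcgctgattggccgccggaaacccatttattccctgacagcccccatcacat
Sox11 promoter: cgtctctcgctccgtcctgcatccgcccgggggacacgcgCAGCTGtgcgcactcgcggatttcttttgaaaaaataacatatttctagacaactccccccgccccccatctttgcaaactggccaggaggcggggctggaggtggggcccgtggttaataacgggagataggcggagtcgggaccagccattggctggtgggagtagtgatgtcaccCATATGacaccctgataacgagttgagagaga
Foxc1 promoter: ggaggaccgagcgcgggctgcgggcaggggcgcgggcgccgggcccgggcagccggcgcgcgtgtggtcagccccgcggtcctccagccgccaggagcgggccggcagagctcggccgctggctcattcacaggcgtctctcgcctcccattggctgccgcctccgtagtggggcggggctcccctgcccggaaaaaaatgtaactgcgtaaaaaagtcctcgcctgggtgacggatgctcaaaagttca
The Foxa1 window held 1 E-box and the Sox11 window 2, of which 1 was the form CAGCTG, while the Sox2 and Foxc1 windows held 0. The forkhead motif TGTTTAC, read on the other strand as GTAAACA, occurred once in the Foxa1 window and not in the other 3. Over 32851 promoter windows of this length, CANNTG occurred in 66.2%, CAGCTG (which it includes) in 13.0%, TGTTTAC in 3.17%, the Sox motif ACAATG in 10.7% and the T-box motif GGTGTGA in 3.33%, on either strand. Over the 63 windows of the 50 members found in the table, the shares were 63.5%, 12.7%, 3.17%, 9.52% and 1.59%. Member windows had a median GC content of 60.0% and 13 CpG, against 52.4% and 6 over all windows. A match of letters is a description and not a binding site.

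Foxa genes, the pioneer factors of endoderm, were nearly absent from both mutant cultures. Foxa1 had 0 reads in BEM, 2 in BM and 863 in WT, or 0, 0.0312 and 12.6 FPKM. Against a floor of 3 reads in BEM it was 318-fold lower there, with an interval from 258 upward. In BM it was 403-fold lower (111 to 3330). Foxa2, of endoderm, notochord and floor plate, had 3 reads in BEM, 0 in BM and 56 in WT, and Foxa3, of liver and gut, had 2, 1 and 24. The 3 genes thus had a common pattern, at a level of 12.6, 1.10 and 0.547 FPKM in WT. Of 14 endoderm and liver genes of the Foxa network, 4 passed the filter, and 3 of these were at least 2-fold lower in BM and in BEM, with 0 higher. By mean level these were led by Gata6, at 4.40 FPKM in BEM, 4.13 in BM and 15.5 in WT, and by the fibrinogen gene Fgb, at 0, 1 and 1286 reads, followed by Gata4 at 1.23, 1.32 and 1.06 FPKM. Fgb and Apoa1, both among the lower genes, passed the filter only through WT, which set their direction in advance.

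Foxc1, Foxc2, Foxd1, Foxd2, Foxf1 and Foxf2, several of them factors of mesenchyme, were lower in both mutants, while Foxd3 was higher. Foxc1, needed for cranial mesenchyme and vessels, stood at 0.733 FPKM in BEM, 0.906 in BM and 7.30 in WT, 9.96-fold lower in BEM (7.76 to 13.0) and 8.06-fold lower in BM (6.31 to 10.4). Foxc2, its close relative, stood at 0.832, 0.803 and 2.37 FPKM, 2.84-fold lower in BEM (2.06 to 3.97) and 2.95-fold lower in BM (2.09 to 4.24). The difference was thus smaller for Foxc2, and both genes were under 1 FPKM in BEM and BM and above it in WT. Foxf1, a Hedgehog-responsive factor of gut and lung mesenchyme, had 22 reads in BEM, 26 in BM and 347 in WT, and was 17.4-fold (11.3 to 28.2) and 12.5-fold (8.35 to 19.3) lower in BEM and BM. Foxf2, of palate and brain pericytes among others, had 40, 31 and 79 reads and was 2.18-fold (1.47 to 3.28) and 2.38-fold (1.55 to 3.73) lower. Foxd1, of kidney stroma and ventral forebrain, stood at 0.375, 0.323 and 3.86 FPKM, 10.3-fold lower in BEM (7.53 to 14.4) and 11.95-fold lower in BM (8.34 to 17.7). In the Foxc and Foxf pairs, Foxc1 and Foxf1 thus stood further below WT than their relatives. Foxd2 had 3 reads in BEM, 7 in BM and 92 in WT. Foxd3, a factor of neural crest and of pluripotent cells, stood on the other side, with 42 reads in BEM, 42 in BM and 1 in WT, ratios of 38.0 (6.46 to 1537) and 45.0 (7.65 to 1820).

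Most of the 13 mesenchyme and fibroblast genes set beside them had the opposite direction. All 13 passed the filter, and 9 were past 2-fold upward and 0 downward in BM and in BEM, with median log2 ratios of 1.99 and 2.02. Within 2-fold of WT, 1 more was higher and 3 were lower in each mutant. The 3 lower genes, named after their values were seen, were Col3a1 at 625, 629 and 816 FPKM, Pdgfra at 26.0, 25.9 and 51.0 FPKM and Twist2 at 7.91, 8.85 and 12.3 FPKM, each in the order BEM, BM and WT. The most abundant were Col1a1 at 2554 FPKM in BEM, 2645 in BM and 1009 in WT, Acta2, smooth muscle actin, at 2578, 2576 and 37.0 FPKM, and Col1a2 at 964, 978 and 186 FPKM. Foxs1, a factor of pericytes and of sensory neurons of neural crest origin, stayed within 2-fold, at 7.40, 7.74 and 9.48 FPKM. Among 7 measured pericyte and smooth muscle genes, 4 were past 2-fold upward and 2 downward in each mutant, with Actg2 at 3448 reads in BEM, 2765 in BM and 3 in WT, Cnn1 at 2451, 2086 and 20 reads, and Cspg4 at 40.1, 40.8 and 2.78 FPKM. The 2 downward genes, named after their values were seen, were the pericyte genes Rgs5, at 22, 23 and 441 reads, and Notch3, at 10.96, 11.5 and 25.3 FPKM.

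Fox genes tied to epithelia and cilia were also low in the mutants. Foxj1, the master regulator of motile cilia, had 7 reads in BEM, 3 in BM and 93 in WT, 14.7-fold (6.85 to 37.5) and 28.9-fold (9.60 to 143) lower. Foxq1, an epithelial factor, had 2, 2 and 154 reads, 85.1-fold (23.2 to 709) and 71.8-fold (19.6 to 599) lower. Neither gene reached 2 FPKM in WT, and neither had 10 reads in BEM or BM. Of 18 genes of motile cilia that Foxj1 is known to activate, 1 passed the filter: Cfap43, at 10.6 FPKM in BEM, 10.9 in BM and 8.12 in WT. The next by mean level were Dnaic2, at 56, 54 and 162 reads, and Rsph1, at 19, 20 and 17 reads. The summed level of the 18 was 13.6 FPKM in BEM, 14.2 in BM and 13.9 in WT, most of it Cfap43. Without Cfap43 the other 17 summed to 2.996 FPKM in BEM, 3.34 in BM and 5.75 in WT. Cfap43 was left out after its values were seen, and none of the 17 passed the filter. Dnaic2 alone held 0.515, 0.588 and 1.65 FPKM of these sums, while Rsph1 did not fall and Zmynd10 had 11 reads in each culture. Foxl2, of granulosa cells, had 21 reads in BEM, 9 in BM and 84 in WT, and Foxo6, a neuronal Foxo gene, had 17, 12 and 79.

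Broadly expressed Fox genes stood mostly within 2-fold of WT, and Foxm1 was the 1 measured Fox gene at least 2-fold higher in the mutants. Foxk1, Foxk2, Foxj2, Foxj3, Foxn2 and Foxn3 had log2 ratios between -0.73 and 0.32 in both comparisons. Foxj2 stood at 6.65 FPKM in BEM, 6.78 in BM and 7.27 FPKM in WT, Foxj3 at 5.08, 5.22 and 6.14 FPKM, Foxn2 at 4.55, 4.09 and 3.54 FPKM and Foxn3 at 4.59, 4.42 and 4.19 FPKM. All 4 are widely expressed forkhead genes. Foxk1 stood at 11.5 FPKM in BEM, 12.04 in BM and 10.3 in WT, while its relative Foxk2 stood at 19.3, 19.5 and 32.3 FPKM, 1.68-fold lower in BEM (1.59 to 1.76) and 1.66-fold lower in BM (1.57 to 1.75). The insulin-regulated Foxo genes were all lower to some degree. Foxo3 stood at 15.5, 15.7 and 21.1 FPKM, Foxo1 at 2.50, 2.59 and 4.55 FPKM, and Foxo4 at 6.59, 6.66 and 13.8 FPKM, the last 2.09-fold lower in BEM (1.88 to 2.32) and 2.07-fold lower in BM (1.85 to 2.31). With the pseudocount, Foxo4 had log2 ratios of -1.01 and -0.99 and so lay at the 2-fold line. Of 11 measured genes that Foxo factors activate, 6 were at least 2-fold lower and 0 higher in each mutant. The most abundant were Txnip, an inhibitor of glucose uptake, at 53.6, 51.9 and 300.7 FPKM, the stress gene Gadd45a at 17.0, 16.1 and 83.4 FPKM, and Irs2, an insulin receptor substrate, at 4.08, 4.27 and 29.8 FPKM. In the Foxp group, repressors of lung, heart and neural development, Foxp4 stood at 11.7 FPKM in BEM, 12.1 in BM and 32.7 in WT, 2.80-fold (2.63 to 2.99) and 2.70-fold (2.53 to 2.89) lower. Foxp1 stood at 4.27, 4.37 and 7.53 FPKM. Foxp2 stayed under 0.5 FPKM in each culture.

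Foxm1, which drives transcription of mitotic genes, stood at 8.18 FPKM in BEM, 8.45 in BM and 1.90 in WT, 4.30-fold (3.73 to 4.97) and 4.44-fold (3.85 to 5.14) higher. The 13 mitotic genes known as its targets all passed the filter. In BM 10 of them were at least 2-fold higher and 0 lower, and in BEM 11 and 0, with median log2 ratios of 1.71 and 1.79. Cdc20, an activator of the anaphase-promoting complex, stood at 37.1 FPKM in BEM, 39.1 in BM and 7.18 in WT, Ccnb2 at 23.1, 22.1 and 4.85 FPKM, and the kinesin gene Kif20a at 19.1, 17.98 and 2.03 FPKM.

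Sox genes of progenitor and prosensory cells were lower in both mutant cultures. Sox2, of prosensory, neural and pluripotent cells, had 8 reads in BEM, 10 in BM and 187 in WT, or 0.163, 0.242 and 4.22 FPKM, 25.8-fold (12.8 to 60.7) and 17.4-fold (9.28 to 37.0) lower. Its group B relatives were scarce: Sox21 had 3, 0 and 58 reads, while Sox1 and Sox3 had 0 reads in both mutants and 7 and 1 in WT. Of 11 neural progenitor and pluripotency genes 3 passed the filter and 2 of these were at least 2-fold lower in each mutant, with 0 higher. Nes, the intermediate filament gene of neural progenitors, stood at 14.5 FPKM in BEM, 14.8 in BM and 46.6 in WT, Msi1 at 0.854, 0.634 and 7.80 FPKM, and Fabp7 at 1.78, 1.63 and 1.89 FPKM.

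The group C genes, which act in neuronal and mesenchymal progenitors, were all lower, in unequal degree. Sox11 stood at 1.43 FPKM in BEM, 1.42 in BM and 12.7 in WT, 8.87-fold (7.84 to 10.1) and 8.94-fold (7.82 to 10.3) lower. Sox4 was 2.33-fold (2.23 to 2.44) and 2.13-fold (2.03 to 2.23) lower, and Sox12, at 7.78, 7.66 and 14.2 FPKM, 1.82-fold (1.67 to 1.99) and 1.85-fold (1.69 to 2.03) lower. The intervals of the fold for Sox11 lay wholly apart from those for Sox4 and Sox12. Among 5 measured neuronal genes, 3 were past 2-fold upward and 1 downward in each mutant. Gap43 of growing axons stood at 26.7 FPKM in BEM, 27.4 in BM and 0.853 in WT, and the neuronal tubulin Tubb3 at 6.90, 7.75 and 0.745 FPKM, while the neurofilament gene Nefm had 15, 11 and 836 reads.

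Among group E genes, Sox9 was lower and Sox10 higher in the mutants. Sox9, the master factor of cartilage that also acts in the otic vesicle, stood at 5.54 FPKM in BEM, 5.77 in BM and 17.4 in WT, 3.14-fold (2.84 to 3.46) and 3.01-fold (2.72 to 3.34) lower. Sox10, of neural crest, Schwann cells and otic epithelium, had 83 reads in BEM, 73 in BM and 1 in WT, or 1.28, 1.34 and 0.0171 FPKM. These are ratios of 75.1 (13.1 to 3003) and 78.2 (13.6 to 3132). Sox8 had 26, 17 and 44 reads. A long non-coding gene on the opposite strand, 2810468N07Rik, shares exon bases with Sox8 and stood at 0.374, 0.221 and 4.71 FPKM, and reads of such a pair cannot be told apart where the counting strand is not given. Of the 13 genes of the Sox10 network in crest, glia and pigment cells, 6 passed the filter, of which 3 were at least 2-fold lower and 0 higher in each mutant. The most abundant were Ednrb at 1.95 FPKM in BEM, 1.90 in BM and 8.42 in WT, the nerve growth factor receptor gene Ngfr at 2.62, 2.89 and 6.34 FPKM, and Mitf at 1.97, 2.10 and 3.12 FPKM. Below the filter, the glial receptor gene Erbb3, with 81, 81 and 19 reads, had the same direction as Sox10, and it was picked out after its values were seen.

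Among the group D genes, of which Sox5 and Sox6 are partners of Sox9 in cartilage, Sox5 and Sox13 were lower in the mutants and Sox6 was not. Sox5 had 24 reads in BEM, 18 in BM and 318 in WT, 14.6-fold (9.66 to 23.2) and 16.5-fold (10.3 to 28.2) lower, and Sox13 stood at 0.662, 0.7495 and 5.28 FPKM, 7.98-fold (6.18 to 10.4) and 7.05-fold (5.43 to 9.28) lower. Sox6 stayed under 0.2 FPKM in each culture, with 66 reads in BEM, 35 in BM and 22 in WT. It was 2.72-fold (1.65 to 4.62) higher in BEM than in WT, while its ratio of BM to WT, 1.71 (0.973 to 3.05), had an interval that held 1. Between the mutants, Sox6 was higher in BEM with a ratio of 1.59, its interval from 1.04 to 2.47. Of 13 cartilage genes 2 passed the filter: Col11a1, at 24.4 FPKM in BEM, 24.0 in BM and 13.2 in WT, and Col11a2, at 0.842, 1.20 and 4.01 FPKM, at least 2-fold lower in both mutants. Col9a3 had 78, 48 and 115 reads. Of the group F genes of endothelium, Sox17 had 1 read in WT alone and Sox18 1 read in BM alone, while Sox7 had 17, 21 and 33 reads. Of 10 endothelial genes 3 passed the filter, with 1 higher and 1 lower in each mutant: Flt1 stood at 11.8, 11.9 and 3.30 FPKM, Kdr at 1.80, 2.02 and 1.28 FPKM and Egfl7 at 0.833, 0.597 and 2.75 FPKM.

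The T-box family was split, with Tbx2, Tbx3 and Tbx6 lower and Tbx1, Tbx4, Tbx5, Tbx15 and Tbx18 higher in both mutant cultures. The repressor genes Tbx2 and Tbx3 act in otic and limb patterning. Tbx2 stood at 2.13 FPKM in BEM, 1.92 in BM and 19.0 in WT, 8.92-fold (7.64 to 10.4) and 9.90-fold (8.32 to 11.9) lower. Tbx3 stood at 2.46, 2.30 and 11.7 FPKM, 4.74-fold (4.24 to 5.30) and 5.06-fold (4.47 to 5.73) lower. The antisense gene Tbx3os1 shares exon bases with Tbx3 and stood at 0.106, 0.0314 and 3.47 FPKM, so the same limit of strand holds for this pair. Tbx6, of paraxial mesoderm, had 26 reads in BEM, 15 in BM and 74 in WT.

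Tbx15, a factor of limb and skin mesenchyme, was the most abundant T-box gene of both mutants, at 19.1 FPKM in BEM, 18.8 in BM and 3.36 in WT, 5.68-fold (4.995 to 6.48) and 5.60-fold (4.92 to 6.41) higher. Its close relative Tbx18, of pericytes, epicardium and otic mesenchyme, stood at 2.06, 1.57 and 0.590 FPKM, 3.49-fold (2.61 to 4.71) and 2.66-fold (1.96 to 3.65) higher. Tbx1, a factor of pharynx and otic vesicle, had 134 reads in BEM, 144 in BM and 18 in WT, 6.74-fold (4.10 to 11.7) and 8.57-fold (5.24 to 14.9) higher. The limb-bud genes were all but missing from WT. Tbx4, of the hindlimb, had 126, 83 and 3 reads, ratios of 38.0 (12.7 to 187) and 29.7 (9.80 to 147). Tbx5, of forelimb and heart, had 98, 94 and 0 reads. Against a floor of 3 reads in WT it was 29.6-fold higher in BEM and 33.6-fold higher in BM. The intervals ran upward from 23.6 and 26.8. Tbx4 and Tbx5 have means under 1 FPKM and so are not in the counts of the 29 members. Of 10 cardiac genes 2 passed the filter, 1 at least 2-fold lower and 0 higher in each mutant, with Hand2 at 3.68 FPKM in BEM, 3.25 in BM and 37.2 in WT, Gata4 as given above and Gja5 at 2, 2 and 124 reads.

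Neighbouring members on a chromosome did not always share a direction. Members within 1 Mb of each other formed 12 pairs in the GENCODE annotation of GRCm38. Tbx2 (chr11:85832551-85841948) and Tbx4 (chr11:85886422-85916097), 44.5 kb apart on the same strand, had log2 ratios of -2.89 and 1.93 in BEM and -3.01 and 1.66 in BM. Tbx3 (chr5:119670669-119684724) and Tbx5 (chr5:119832668-119885219), 147.9 kb apart, had -2.04 and 1.46 in BEM and -2.12 and 1.58 in BM. In both pairs the Tbx2 or Tbx3 member was lower and the limb member higher. In the forkhead clusters no member was higher than WT in either mutant. On chromosome 8, Foxf1, Foxc2 and Foxl1 span gaps of 28.0 and 9.0 kb and had log2 ratios of -3.02, -1.11 and -0.40 in BEM and -2.79, -1.14 and -0.24 in BM, Foxl1 with 4, 7 and 14 reads in BEM, BM and WT. The counting interval of the Foxl1 ratio in BM, 0.183 to 1.42, held 1, so that its direction in BM is not shown. On chromosome 13, Foxq1, Foxf2 and Foxc1 had -1.84, -0.76 and -2.66 in BEM and -1.83, -0.83 and -2.47 in BM.

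**Figure D4:**
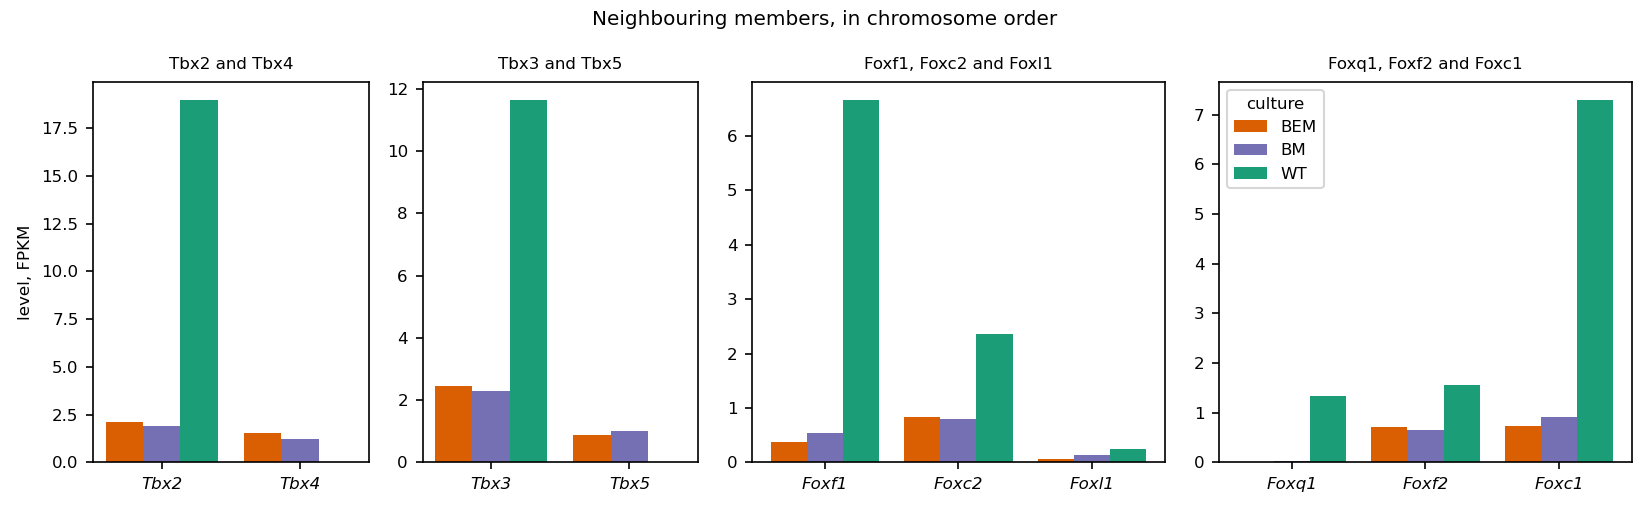
Levels in FPKM of neighbouring members in BEM, BM and WT, with 1 bar per library and each panel on its own axis. Tbx2 and Tbx3 are tallest in WT, at 19.0 and 11.7 FPKM, while the adjacent Tbx4 and Tbx5 are seen in BEM and BM, and all 6 forkhead genes are tallest in WT.

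BEM and BM differed little in these families. Among the 29 filtered members 0 were at least 2-fold higher and 0 lower in BEM than in BM, against 0.458% and 0.326% of all filtered genes, or 0.784% in either direction, and their median log2 ratio was -0.03. The authors' deposited table marked 0 members for this comparison, against 0% of genes higher and 0.0021% lower. The counting interval of the ratio lay above 1 for Tbx18, 1.31-fold higher in BEM (1.06 to 1.62), and for Foxn2, 1.11-fold higher (1.00 to 1.24), and below 1 for Sox4, 1.09-fold lower (1.04 to 1.16). These are 2 and 1 of 29 filtered members, against 7.04% and 5.77% of 12837 filtered genes with recovered reads. Barhl1 itself was all but absent from BEM and abundant in BM, by the values given at the start.

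Markers of other cell types also differed from WT. Over all filtered genes, 10.7% were at least 2-fold higher in BEM and 10.5% in BM, and 15.3% were lower in each. C1qa, absent from WT, passed the filter only through BEM and BM. So did the macrophage genes Tyrobp, C1qb, C1qc, Adgre1, Csf1r, Spi1, Aif1 and Ptprc, each under 1 FPKM in WT. Cldn4 passed only through WT. For such genes the filter set the direction in advance. Of 12 macrophage genes 11 passed the filter and all 11 were at least 2-fold higher in each mutant. Only Lyz2 and Cd68 of these were above 1 FPKM in WT, so the filter largely set this count in advance. The summed level of the 12 was 1920 FPKM in BEM, 1871 in BM and 13.1 in WT. Lyz2 stood at 1409, 1380 and 3.08 FPKM, C1qa at 127, 119.6 and 0 FPKM, and Cd68 at 118, 117 and 9.23 FPKM. Of 9 epithelial genes 3 passed and all 3 were at least 2-fold lower, with a summed level of 5.23 FPKM in BEM, 5.50 in BM and 39.6 in WT, led by Krt18 at 3.93, 3.76 and 27.2 FPKM, Cldn4 at 15, 17 and 235 reads and Krt8 at 0.721, 1.10 and 3.34 FPKM. Of 9 genes of paraxial mesoderm and muscle only Meox1 passed, at 0.810, 1.05 and 10.02 FPKM, followed by Tcf15 with 0, 0 and 62 reads and Meox2 with 23, 14 and 16. Of 13 otic genes 6 passed, with 1 at least 2-fold higher and 3 lower in each mutant: Eya4 stood at 3.33, 4.19 and 1.04 FPKM and Lfng at 2.87, 2.56 and 1.72 FPKM. The part of these other cells, and of the mesenchyme and smooth muscle genes above, in the Fox, Sox and Tbx values was not tested. T cell genes were near 0, with Cd3d, Cd3e and Cd8a at 0 reads in every culture. Foxp3, the factor of regulatory T cells, had 5 reads in BEM, 9 in BM and 23 in WT and shares exon bases with Ppp1r3f and Ccdc22 on the opposite strand. Tbx21, of T helper and natural killer cells, had 1 read in WT and 0 in the mutants.

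A list of 10 family genes outside the symbol pattern was set beside the members, and 5 of these passed the filter, with 1 at least 2-fold lower and 0 higher in each mutant. The most abundant were the HMG-box gene Hbp1 at 12.9 FPKM in BEM, 12.5 in BM and 17.7 in WT, Tcf7l1 at 8.88, 10.1 and 10.04 FPKM, and the T-box gene Mga at 7.09, 7.01 and 8.77 FPKM. Brachyury (T) had 0, 1 and 0 reads, and Eomes 9, 7 and 12. Foxq1, Foxl2 and Tbx18 also share exon bases with a gene on the opposite strand (A530084C06Rik, Foxl2os and D030062O11Rik). The same limit holds for them and for further members. For Foxf1, Foxf2, Foxj2, Foxo1, Sox4, Sox5 and Sox21, the gene on the opposite strand was under 1 FPKM in every culture. Members also differed in gene structure. Of the 76, 19 have a single exon in the annotation, and 3 of those reached 1 FPKM in BEM, 3 in BM and 10 in WT. Of the other 57, with several exons, 21 did so in BEM, 21 in BM and 27 in WT. The same shares over all genes were not computed, so this split cannot be set against that of other genes.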

How the data were processed

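RNA of 3 cultures, 1 library each, was enriched with oligo-dT and sequenced after Illumina TruSeq preparation, per the labels' protocols. The authors deposited FPKM for each gene, per the file headers, together with their own log2 ratio for each pair of libraries. A p-value and an FDR by the authors stood in the same deposited tables. The submitters' processing notes name TopHat2, HTSeq, edgeR and the build GRCm38, all without versions, and no source used here says whether counting used strand. The unit is FPKM, so no count test was run. Each table held 47725 genes, and 4 further lines were not analysed here. The same FPKM stood in each table that held a library.

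FPKM times exonic length (GENCODE vM21, GRCm38) times library total gives reads. Totals were the values that most often made low genes 1 read, and reads were accepted when whole within 0.0001 in all 3 libraries. This held for all 76 members: 53 at the annotated length, 10 at 0, and 13 only at another length, the nearest one that worked, so that their reads, and the width of their intervals, are less certain (Foxa1, Foxc1, Foxd1, Foxd4, Foxh1, Foxl2, Foxn3, Foxp3, Foxq1, Sox7, Sox10, Tbx1 and Tbx20). A fold against 0 reads uses a floor of 3 reads in that library. Ratios use log2(FPKM + 0.5), which understates changes of low genes; folds with intervals are ratios of reads per total. PCR reads are not independent molecules, so the intervals and the floor express counting error alone. The procedure was tested on simulated data. Python 3.11.15, numpy 2.4.6, pandas 2.3.3 and scipy 1.17.1 were used.

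Members and gene lists were chosen with earlier results of these data known. Every member at 1 FPKM or more in a culture was to be named, and of each list the 3 genes of highest mean; genes named beyond this were chosen after their values were seen, and some genes that this rule would name are not reported here. DNA-binding domains of the proteins were not analysed here. Alternatives covered scaling, pseudocount, filter, thresholds and the authors' ratios.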

Additional observations from a re-analysis of the deposited data

How the results depend on the processing

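Median-of-ratios and upper quartile scaling changed counts by at most 1: 36 members at 1 FPKM or more in WT, 25 in BM and 24 in BEM, and 12 and 13 members at least 2-fold lower in BM and BEM. With a threshold of 5 FPKM 13 members were expressed in BEM, 13 in BM and 19 in WT, and with at least 20 reads 38, 35 and 45. In BM against WT the members higher and lower, 3 and 13, became 1 and 8 with a pseudocount of 5 FPKM, 7 and 23 with no filter, 1 and 2 with a mean of at least 10 FPKM, 5 and 22 with 1 FPKM in any library, and 1 and 9 with a 4-fold threshold. In BEM against WT 4 and 14 became 1 and 9, 8 and 24, 1 and 2, 6 and 23, and 1 and 9 under the same settings. The shares of all genes, without the 4-fold threshold, were 4.18% and 6.46%, 3.63% and 6.24%, 10.1% and 10.6%, and 10.8% and 18.4% in that order. The other settings kept each count within 1.5 times, and 0 members were 2-fold apart between BEM and BM under any of them. The median of the filtered members stayed below 0 in both comparisons with WT under every setting, between -1.14 and -0.23. No single member past 2-fold changed direction. No paired analysis was possible because each line has 1 library. Depth limits the members under 20 reads, where a ratio rests on a few reads.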

Other observations

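Long non-coding genes that start within 5000 bases of an expressed member on the opposite strand numbered 15. Some were low in the same cultures as that member and others were not. They were chosen after the members' values were seen, and the counting strand is not given. The share of all non-coding genes with such a pattern was not computed. Foxd2os, 384 bases from the start of Foxd2, had 9 reads in BEM, 4 in BM and 113 in WT. Fendrr, 1276 bases from Foxf1 and known to act in lateral mesoderm, had 6, 5 and 66 reads. Foxl2os, 11 bases from Foxl2, had 4, 4 and 34 reads, and it shares exon bases with that gene. Beside the T-box repressors, 2610027K06Rik near Tbx2 had 4, 5 and 39 reads, and Tbx3os1 near Tbx3 had 8, 2 and 237. BC006965, next to Sox9, had 2, 1 and 13 reads. Beside other members that were lower in the mutants, Gm9967 near Tbx6 had 17, 15 and 15 reads and 1700018A04Rik near Foxf2 had 6, 2 and 4. Foxo6os near Foxo6 had 1, 0 and 0 reads, Gm15556 near Foxp4 had 1, 0 and 1, and Gm20402 near Foxo1 had 0 in each. Next to members of similar level in all cultures, Gm26826 beside Foxj2 had 0, 1 and 6 reads and Gm26839 beside Foxn3 0, 0 and 3. Next to Sox10, which was higher in the mutants, Gm10863 had 1, 3 and 1 reads.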
